A study of Mus musculus with 8 samples.

Results

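The slow-rich and fast-rich muscle spots of the CaV1.1 KO and the β-cat cKO diaphragm at E18.5 were compared here, each section on its own. They are 1200 spots of 12771 under tissue in the whole series, namely 204 slow-rich and 205 fast-rich spots of 813 muscle spots in the KO, and 396 slow-rich and 395 fast-rich spots of 1577 muscle spots in the cKO. The spots were chosen by measured values. Spots with at least 1000 UMIs (unique molecular identifiers, each 1 captured molecule) were muscle spots where the mean log-normalized level of 9 muscle genes (*Acta1*, *Actn2*, *Des*, *Myl1*, *Mylpf*, *Neb*, *Ryr1*, *Tnnt3* and *Ttn*) lay above Otsu's threshold of the section. Their score was log2 of the summed UMIs of *Myh7*, *Myl2* and *Myl3* plus 1 over the summed UMIs of *Myh4*, *Mybpc2* and *Actn3* plus 1. Muscle spots in the upper 25% of scores of a section were taken as slow-rich and those in the lower 25% as fast-rich, with tied spots kept.

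The series holds 8 Visium sections of embryonic mouse diaphragm, in which probes report transcripts at their place in the tissue. At E18.5 these are 2 sections of genotype control, 1 of genotype CaV1.1 -/- (the KO, 23949267 UMIs) and 1 of genotype bCat cKO (the β-cat cKO, 61092194 UMIs), and the controls held 82859104 and 69837233 UMIs. The other 4, from E14.5, are 3 controls and 1 CaV1.1 -/- section. The KO lacks CaV1.1, the voltage sensor that triggers calcium release, in every cell, and its muscle does not contract. In the cKO β-catenin was deleted by Cre recombinase under the human skeletal actin (HSA) promoter, hence in muscle fibers and not in tendon, connective tissue or nerve. The crosses bred both alleles together, so a cKO embryo can be CaV1.1+/- and a KO embryo can carry floxed β-catenin, whereas controls kept at least 1 working allele of each. Each mutant is 1 section of 1 embryo without a replicate, and n is 2 for the controls at E18.5. A spot is 55 µm wide on a 5 µm section, spots lie 100 µm apart, and a spot covers parts of several fibers together with connective tissue, vessels and nerve. "Slow-rich" and "fast-rich" therefore rank small regions within a section and name no fiber type. Fewer fibers of a kind and less RNA per fiber cannot be told apart in them.

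Slow (type I) fibers use the myosin heavy chain encoded by *Myh7* with the light chains *Myl2* and *Myl3*, slow isoforms of the troponin subunits and the slower calcium pump *Atp2a2*, and rely on oxidative metabolism. The fastest (type IIb) fibers use *Myh4*, the fast myosin binding protein *Mybpc2*, the Z-disc protein *Actn3* and the pump *Atp2a1*, and depend on glycolysis. Fetal fibers still carry the embryonic and perinatal myosins *Myh3* and *Myh8*. Muscle activity, the nerve and transcription factors such as TEAD, SOX6, PROX1 and the large MAF proteins are known to set the balance.

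Promoter sequence is shown for score genes of either side and for *Tnnc1*, the slow troponin C, which stood higher in the slow-rich spots of all 4 sections at E18.5. The MCAT motif bound by TEAD factors, CATTCC or GGAATG on the other strand, was the motif searched, in the 250 bases before each start site given by RefSeq for GRCm38.p6. Of 9 genes looked for (the 6 score genes, *Tnnc1*, *Tnnt1* and *Tnni1*), 8 matched, with 11 windows, and *Actn3* had no entry. *Myh7*, *Myl3*, *Myh4*, *Mybpc2* and *Tnnc1* held the motif in a window, and *Myl2*, *Tnnt1* and *Tnni1* did not hold these letters. Among 32851 such windows of all genes 12.6% held it. This is a share of windows and not of genes, and a gene with several windows has more places to hold it. The motif stood on both sides of the score, at position -58 before the start site in *Tnnc1*, at -177 and -149 in *Myl3*, at -231 in *Myh4* and at -62 in *Mybpc2* (first base of the motif, counted from the start site). In the sequences, 5′ to 3′, the motif is in capitals.
Tnnc1 (chr14:31208062-31208311, plus strand): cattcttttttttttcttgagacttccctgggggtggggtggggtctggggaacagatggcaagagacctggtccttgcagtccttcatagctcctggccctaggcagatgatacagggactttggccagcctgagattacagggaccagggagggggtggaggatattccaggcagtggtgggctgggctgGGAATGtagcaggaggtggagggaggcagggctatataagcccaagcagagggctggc
Myl3 (chr9:110763428-110763677, plus strand): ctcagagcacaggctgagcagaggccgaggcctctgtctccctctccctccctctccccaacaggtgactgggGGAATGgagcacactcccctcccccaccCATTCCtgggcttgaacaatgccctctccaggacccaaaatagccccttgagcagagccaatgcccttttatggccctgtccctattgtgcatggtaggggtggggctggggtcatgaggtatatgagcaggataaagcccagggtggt
Myh4 (chr11:67237562-67237811, plus strand): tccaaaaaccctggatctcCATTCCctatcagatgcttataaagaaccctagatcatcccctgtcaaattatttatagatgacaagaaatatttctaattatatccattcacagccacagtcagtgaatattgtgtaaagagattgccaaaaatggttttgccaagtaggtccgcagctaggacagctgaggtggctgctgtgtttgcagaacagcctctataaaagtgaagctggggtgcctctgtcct
Mybpc2 (chr7:44524670-44524919, minus strand): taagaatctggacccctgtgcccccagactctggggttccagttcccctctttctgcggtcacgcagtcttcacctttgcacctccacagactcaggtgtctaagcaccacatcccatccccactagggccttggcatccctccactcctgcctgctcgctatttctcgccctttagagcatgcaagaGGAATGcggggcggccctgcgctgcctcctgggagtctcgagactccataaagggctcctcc

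The mutants had shifted scores, so that their slow-rich spots were slow-rich only within their own section. The median score of muscle spots was 0.30 in control 1, 0.50 in control 2, -1.52 in the KO and -2.92 in the cKO. More slow than fast UMIs were counted in 58.0% and 67.8% of muscle spots of the controls, in 14.9% of those of the KO (121 spots) and in 0.761% of those of the cKO (12 spots). The slow-rich spots of the KO began at a score of -0.56 and the fast-rich spots ended at -2.58, with the next spots outside at -0.57 and -2.57. In the cKO the last spots inside lay at -2.0 and -3.91 and the next outside at -2.01 and -3.89. The slow-rich spots of the cKO, with a median of -1.42, hence lay mostly in the range of fast-rich control spots, which ended at -0.77 in control 1 and -0.25 in control 2. Those of the KO, with a median of 0.206, lay in the middle range of the controls. Few UMIs set the scores of the mutants: the median muscle spot held 14 slow and 43 fast UMIs in the KO and 4 slow and 44 fast UMIs in the cKO, against 53 and 44 in control 1 and 91 and 66 in control 2. No slow UMI was counted in 7 muscle spots of the KO and in 177 (11.2%) of the cKO, 84 of which were fast-rich and 24 slow-rich.

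**Figure D1:**
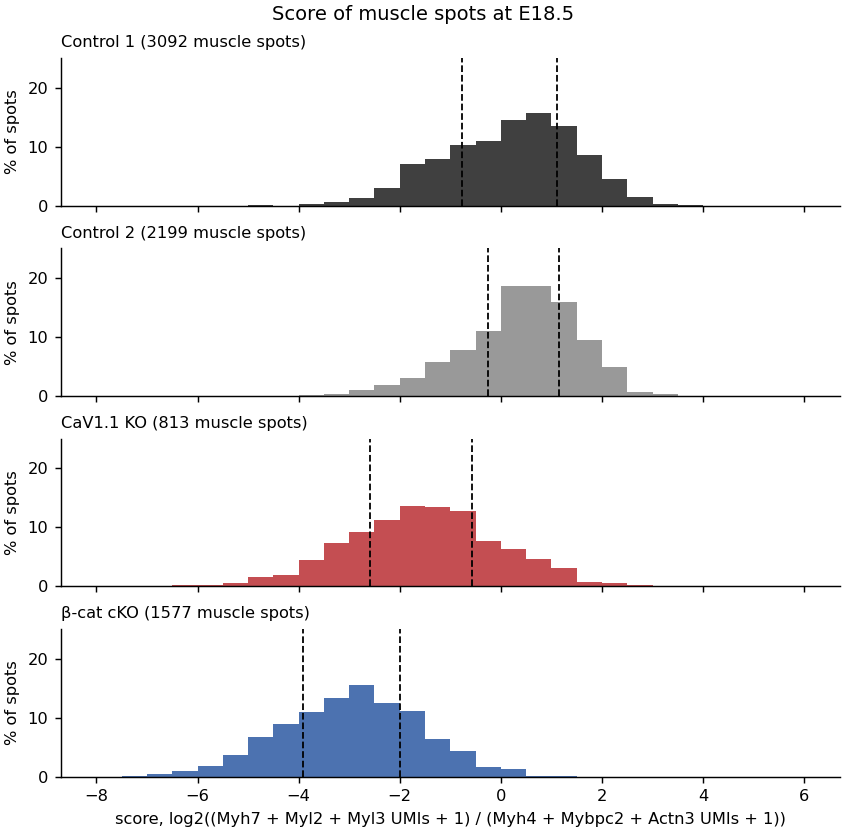
Share of muscle spots (%, vertical axis) by score (horizontal axis, log2 ratio of slow over fast UMIs, in bins) in the 4 sections at E18.5. Dashed lines mark the limits of the fast-rich spots (left) and slow-rich spots (right). The median moves from 0.30 and 0.50 in the controls to -1.52 in the KO and -2.92 in the cKO.

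Lower levels of the slow score genes went with the low scores of both mutants, which differed in their fast score genes. Over all muscle spots the slow myosin *Myh7* stood at 2221 and 2995 CPM (UMIs of the gene per 1000000 UMIs of the summed spots) in the controls, 891 CPM in the KO and 246 CPM in the cKO. *Myl2* stood at 356 and 459 CPM in the controls, 22.1 CPM in the KO and 17.9 CPM in the cKO. *Myl3* stood at 154 and 217 CPM in the controls, 29.1 CPM in the KO and 3.46 CPM in the cKO. All 3 slow genes were lower in both mutants than in either control. On the fast side the mutants went apart at *Myh4*, with 1322 CPM in the KO and 57.9 CPM in the cKO, above and below the controls (173 and 251 CPM). *Mybpc2* was at 434 CPM in the KO and 825 CPM in the cKO against 881 and 1074 CPM in the controls, and *Actn3* was at 688 and 1069 CPM against 877 and 1024 CPM. Most fast UMIs of the KO were thus *Myh4*, and those of the cKO *Actn3* and *Mybpc2*. Myosin heavy chain genes are close paralogs, and how far the probes keep them apart was not tested.

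Score genes cannot be read in groups they set, so each was read again in slow-rich and fast-rich spots set by the other 5 genes, as a description. Slow score genes then stood higher in the slow-rich spots. The log2 ratio of slow-rich over fast-rich CPM was 1.03 in the KO and 1.60 in the cKO for *Myh7*, 3.14 in the KO and 2.95 in the cKO for *Myl2* and 1.35 in the KO and 2.21 in the cKO for *Myl3*. In the controls it was 2.30 and 1.87, 2.47 and 2.0, and 2.31 and 1.83. *Myh7* thus had a smaller ratio in the mutants than in the controls and *Myl2* a larger one, on low counts (209 and 16 UMIs in the slow-rich and fast-rich spots of the KO as first set). Fast score genes stood lower in the slow-rich spots, with -0.90 in the KO and -0.67 in the cKO for *Myh4*, -1.19 in the KO and -0.35 in the cKO for *Mybpc2* and -0.86 in the KO and -0.63 in the cKO for *Actn3*. The 9 genes that chose muscle spots together had -0.75 in the KO and -0.37 in the cKO between the spots as first set. *Mybpc2* in the cKO thus fell no further than these 9 genes. The ratios of score genes were not adjusted for muscle content.

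Muscle content, read from the 9 genes that chose muscle spots, differed between the slow-rich and fast-rich spots of the mutants, and by less in controls. *Tnnt3* among these 9 is a fast troponin, so their mean is not free of fiber type. The 9 genes that chose muscle spots summed to 52511 against 88456 CPM in slow-rich against fast-rich spots of the KO (ratio 0.594) and to 93550.3 against 120797 CPM in the cKO (0.774), with all 9 lower in the slow-rich spots. In the controls the ratios were 0.919 and 0.907. Depth was alike in the KO, with a median of 19611 and 19807 UMIs in slow-rich and fast-rich spots, and lower in the slow-rich spots of the cKO (25046.5 against 34219 UMIs). Across muscle spots the score ran with the muscle mean at Pearson's r of -0.478 (Spearman's rho -0.493, n = 813 spots) in the KO and -0.364 (rho -0.382, n = 1577 spots) in the cKO, and at -0.113 and -0.106 in the controls. The score and the muscle mean of a spot share its depth. Ratios, counts and tests of genes below were therefore read again with the score adjusted, per section, for depth and muscle mean by a linear fit. They were also read again in interior muscle spots, which have no spot outside muscle beside them. Summed levels of other tissue and the clustering of spots were not read again. The interior reading was chosen after the values had been seen. The adjusted score can also lose part of the slow and fast difference itself, and how much was not tested.

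Other tissue moved with the score, so its level is given first. In the KO the mesothelium list (*Msln*, *Upk3b*, *Upk1b*, *Wt1*, *Krt19*) summed to 233 against 46.0 CPM in slow-rich against fast-rich spots with 5 of 5 genes higher, the fibroblast list to 15294 against 8036 CPM (6 of 6), the tendon list to 733 against 414 CPM (5 of 6) and the macrophage list to 638 against 351 CPM (5 of 5). In the cKO the tendon list summed to 909 against 354 CPM (6 of 6), the fibroblast list to 15824 against 8622 CPM (6 of 6), the mesothelium list to 119 against 67.1 CPM (5 of 5), the macrophage list to 333 against 257 CPM (5 of 5) and the cartilage list to 86.1 against 8.88 CPM (4 of 5). Both mutants thus had more connective tissue transcripts in their slow-rich spots, with the largest of these ratios for mesothelium in the KO and cartilage in the cKO. In the controls the fibroblast sums were 8015 against 7681 CPM and 11865 against 9128 CPM, the tendon sums 506 against 314 CPM and 666 against 433 CPM, the mesothelium sums 26.6 against 35.0 CPM and 144 against 85.8 CPM, the macrophage sums 134 against 181 CPM and 193 against 207 CPM and the cartilage sums 986 against 784 CPM and 54.1 against 80.6 CPM. The mesothelium ratio of the cKO (1.78) was thus near that of control 2 (1.68), and that of the KO was 5.06. The endothelium sums were 358 against 479 CPM in the KO and 376 against 367 CPM in the cKO, the erythrocyte sums 362 against 432 CPM and 279.8 against 360.0 CPM, the smooth muscle sums 198 against 150.3 CPM and 548 against 525 CPM and the Schwann cell sums 107 against 134 CPM and 24.5 against 25.7 CPM. Heart muscle shares *Myh7*, *Myl2* and *Myl3*, and its list was near background in both mutants apart from *Myl4*, which fetal skeletal muscle also uses: *Nppb* had no UMI and *Myh6*, *Myl7*, *Tnni3*, *Nppa* and *Ryr2* lay at or under 20.3 CPM. The part of other tissue in the results below was not tested beyond the adjusted and interior readings.

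Slow-rich and fast-rich spots occupied different places. Of the slow-rich spots, 61.8% (exact 95% interval 54.7% to 68.5%) in the KO and 32.6% (28.0% to 37.4%) in the cKO lay beside a spot outside muscle, against 17.1% (12.2% to 22.9%) and 10.6% (7.77% to 14.1%) of the fast-rich spots. The controls had 12.3% against 6.60% and 9.27% in both. Of all muscle spots, 38.4% in the KO and 22.3% in the cKO lay beside a spot outside muscle, against 10.1% and 9.19% in the controls. The slow-rich spots of the mutants thus lay nearer to the edge of the muscle, at a median of 100 µm from other tissue in the KO and 200 µm in the cKO, whereas the fast-rich spots lay at 264.6 and 346.4 µm. The shares came closer with the adjusted score, at 44.1% against 36.8% in the KO and 22.0% against 21.0% in the cKO. Intervals of spots cover counting error only, since neighbouring spots of 1 section are not replicates.

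**Figure D2:**
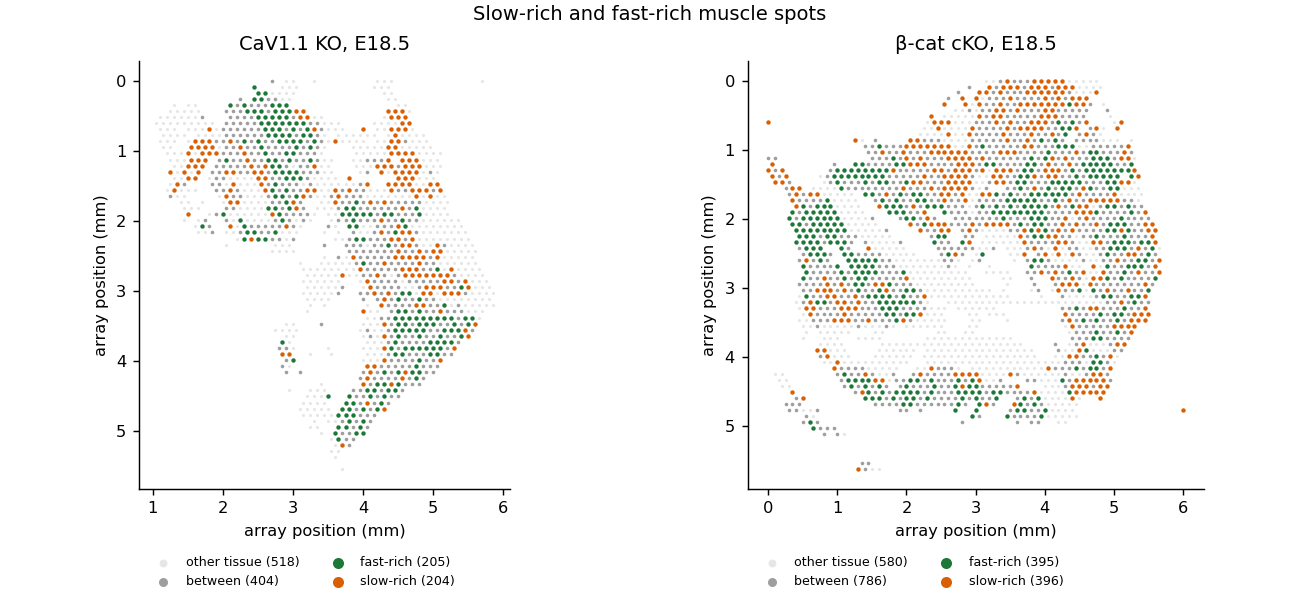
Position of spots with at least 1000 UMIs in the E18.5 section of the CaV1.1 KO (left) and the β-cat cKO (right), both axes in mm on the array. Colours give slow-rich (orange), fast-rich (green), other muscle (dark grey) and spots outside muscle (light grey). Slow-rich and fast-rich spots form patches, and 61.8% of the slow-rich spots of the KO and 32.6% of those of the cKO lie beside a spot outside muscle.

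The same kind of spot clustered. In the KO 51.0% of the muscle spots adjoining a slow-rich spot were slow-rich and 8.19% fast-rich, and 46.6% of those adjoining a fast-rich spot were fast-rich. In the cKO these shares were 43.2%, 8.97% and 50.7%. The score ran with the mean score of the adjoining muscle spots at r = 0.668 (rho 0.671, n = 794 spots) in the KO and r = 0.648 (rho 0.634, n = 1563 spots) in the cKO, against r = 0.602 and 0.655 in the controls. The correlation with adjoining spots was thus of similar size in the mutants and the controls, although few slow UMIs remained. It was read only with the score as counted, which in the mutants also ran with the muscle mean. Whether patches were as clear apart from muscle content was not tested.

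**Figure D3:**
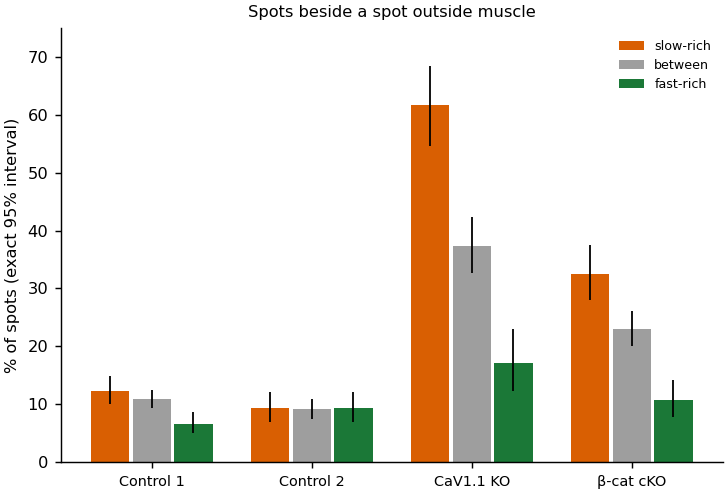
Share of spots (%, bars, with exact 95% intervals as lines) that lie beside a spot outside muscle, for slow-rich, other (between) and fast-rich muscle spots of each section at E18.5. Slow-rich spots of the mutants lie at the edge more often than fast-rich spots (61.8% against 17.1% in the KO and 32.6% against 10.6% in the cKO).

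Genes were compared between the slow-rich and fast-rich spots of a mutant as a description, with no test, since 1 section gives no replicate. Counted were genes with at least 200 UMIs over both groups of spots and a CPM at least 1.5-fold higher in either, the 6 score genes left out. In the KO 844 of 7236 genes (11.7%) were higher in the slow-rich and 188 (2.6%) in the fast-rich spots. In the cKO 588 of 9414 genes (6.25%) were higher in the slow-rich and 44 (0.467%) in the fast-rich spots. Either way these are 14.3% of genes in the KO and 6.71% in the cKO, against 2.18% in control 1 and 1.44% in control 2. The controls had 145 (1.44%) and 74 (0.737%) of 10040 genes in control 1 and 116 (1.19%) and 24 (0.246%) of 9754 in control 2. The median gene stood at a log2 ratio of 0.18 in the KO and 0.20 in the cKO, and scaling by TMM (which sets the bulk of genes to equal) lowered every log2 ratio by 0.20 in the KO and 0.21 in the cKO. The counts then became 369 slow-rich and 493 fast-rich in the KO and 174 and 235 in the cKO, so that the excess on the slow side was lost. A log2 ratio between 0 and these shifts has no firm direction. With the adjusted score 67 and 42 of these 7236 genes were past 1.5-fold in the KO and 65 and 39 of the 9414 in the cKO, and in interior spots 539 and 61 and 418 and 20, with the genes held fixed.

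Genes on the slow side were partly shared by the mutants. Of 7193 genes with enough UMIs in both, 824 (11.5%) were higher in slow-rich spots of the KO and 364 (5.06%) in those of the cKO, and 192 were in both, which is 23.3% of the first and 52.7% of the second list. On the fast side the lists held 185 (2.57%) and 17 genes (0.236%), and 8 were in both, which is 4.32% of the first and 47.1% of the second list. These lists include the connective tissue genes above.

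To ask whether slow-rich and fast-rich spots differed as they do in controls, the slow-minus-fast log2 ratio of a mutant was compared with that of the 2 controls by edgeR on the 16 sums of slow-rich and fast-rich spots of the 8 sections, with the section as a block. The spread came from the 2 controls at E18.5 and the 3 at E14.5 (3 residual degrees of freedom), and each mutant was assumed to vary as they do. The test also shared the spread between genes (median prior degrees of freedom 20.6). The E14.5 controls were ranked on few fast UMIs, with a median of 2, 6 and 2 per muscle spot. In E14.5 control 1 the slow-rich and fast-rich spots also differed in depth (median 26438 against 9254.5 UMIs). Of 13762 genes tested, 1382 (10.0%) were called in the KO, 593 (4.31%) above and 789 (5.73%) below the control ratio, and 737 (5.36%) in the cKO, 162 (1.18%) above and 575 (4.18%) below it. Between the mutants 141 genes (1.02%) were called, 89 (0.647%) higher in the KO and 52 (0.378%) in the cKO. Most calls were lost with the score adjusted for depth and muscle mean, where 26, 44 and 11 genes were called, of which 24, 40 and 10 were among those above and in the same direction. In interior spots 291, 495 and 23 genes were called, of which 288, 451 and 23 were shared. Without control 1 the counts were 665, 135 and 153, and without the section as a block 0 (1364, 462 and 495 at an unadjusted p under 0.05). The comparisons of the mutants with control use the same 2 controls, so each mutant's values are given side by side. The 9 genes that chose muscle spots were left out of these counts. All 9 were called below control in the KO (median difference -0.71) and 2 in the cKO (-0.41), and 0 with the adjusted score. Counts of list members below stand beside these 9 genes and the shares of all genes.

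**Figure D4:**
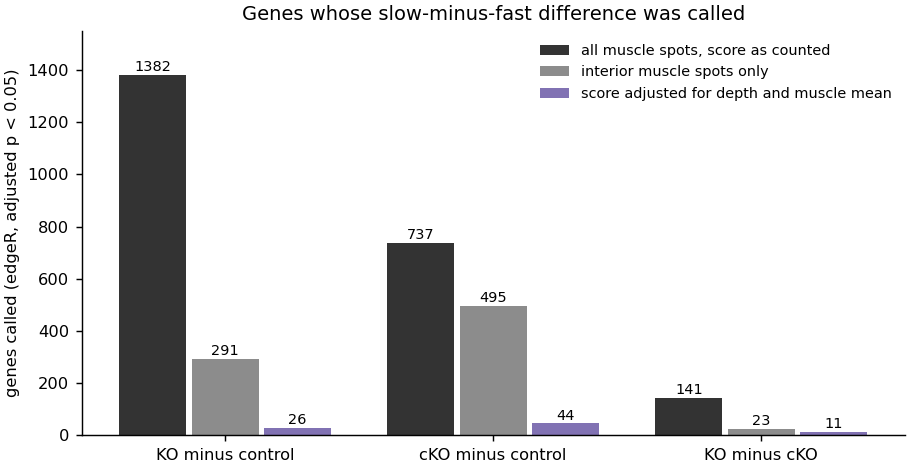
Number of genes whose slow-minus-fast difference was called (vertical axis, edgeR, adjusted p under 0.05) for the CaV1.1 KO against control, the β-cat cKO against control and the KO against the cKO. Bars give all muscle spots, interior muscle spots and all muscle spots with the score adjusted for depth and muscle mean. With the adjusted score the counts are 26, 44 and 11, against 1382, 737 and 141.

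The slow program beyond the score genes was kept in part. Of 13 listed genes with a row, 10 had enough UMIs in each mutant, and 5 were higher in the slow-rich spots of the KO (1 lower, median log2 0.57) and 2 in those of the cKO (none lower, median 0.21, no larger than the TMM shift). In the controls 7 of 11 were higher (medians 1.20 and 1.06). The slow troponin C *Tnnc1* had, in slow-rich and fast-rich spots, 1004 and 228 CPM in control 1, 1071 and 338 CPM in control 2, 740.4 and 326 CPM in the KO and 815 and 329 CPM in the cKO. It was higher in the slow-rich spots of all 4 sections, and its log2 ratio was 1.18 (95% counting interval 1.09 to 1.28) in the KO and 1.31 (95% counting interval 1.26 to 1.36) in the cKO. The slow troponin I *Tnni1* had 1815 and 683 CPM in control 1, 1836 and 802 CPM in control 2, 1721 and 975 CPM in the KO and 2083 and 1458 CPM in the cKO. The slow troponin T *Tnnt1* had 3724 and 1616 CPM in control 1, 3918 and 1885 CPM in control 2, 5030.3 and 3264 CPM in the KO and 2609.6 and 1967 CPM in the cKO. Both troponins were higher on the slow side in every section, by less in the mutants, whose fast-rich spots stood above those of the controls. *Tnnt1* lay higher in the fast-rich spots of the KO than in those of the other 3 sections.

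**Figure D5:**
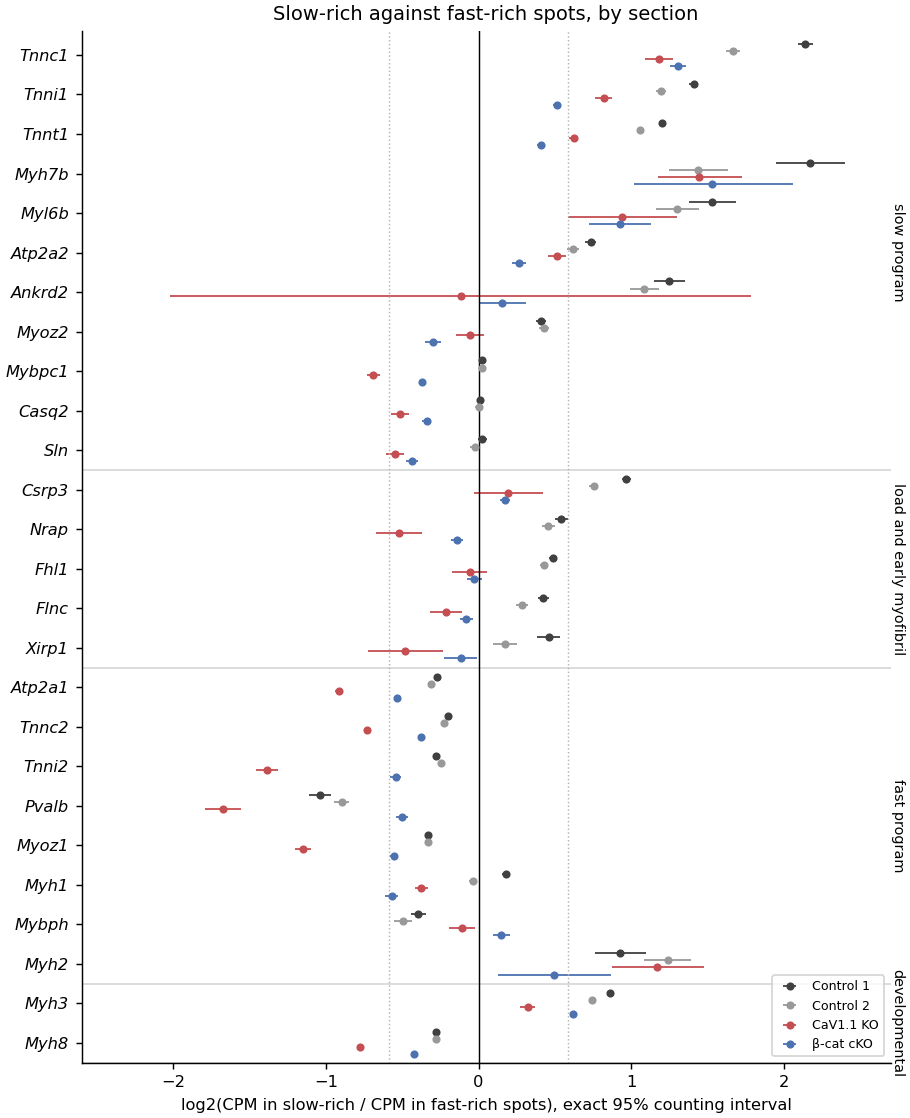
Log2 ratio of CPM in slow-rich over fast-rich spots (horizontal axis) for genes of the slow, load and early myofibril, fast and developmental lists, in each section at E18.5, with exact 95% counting intervals as lines and 1.5-fold as dotted lines. Slow troponins lie right of 0 in all sections, and the load and early myofibril genes lie right of 0 in the controls and near 0 or left of it in the mutants.

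The test placed these ratios below control. For *Tnnc1* the slow-minus-fast difference from control was -0.86 (SE 0.15, adjusted p = 0.00037) in the KO and -0.76 (0.14, 0.0015) in the cKO. For *Tnni1* it was -0.63 (SE 0.14, adjusted p = 0.0053) and -0.96 (0.14, 0.00025), and for *Tnnt1* -0.65 (0.14, 0.00314) and -0.89 (0.14, 0.00046). The slow troponins thus separated less between the slow-rich and fast-rich spots of both mutants. These spots were ranked on fewer slow UMIs, with a median of 14 in the KO and 4 in the cKO against 53 and 91 in the controls. How far the less precise ranking lowered these and the later ratios was not tested. The 3 genes were still called with the adjusted score in the cKO (adjusted p = 0.011, 0.00052 and 0.00182) and were not in the KO (0.0605, 0.464 and 0.258). Between the mutants none of the 12 slow program genes tested was called by edgeR (2 at an unadjusted p under 0.05, 0 by DESeq2), and the difference KO minus cKO was -0.098 ± 0.17 (SE) for *Tnnc1*, 0.33 ± 0.17 for *Tnni1* and 0.24 ± 0.16 for *Tnnt1*.

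Other members split into those that followed the slow score and those that did not. *Myh7b*, the relative of *Myh7* that hosts a slow-muscle microRNA, had 49.4 and 11 CPM in control 1, 56.6 and 20.9 CPM in control 2, 100.4 and 36.8 CPM in the KO and 10.0 and 3.48 CPM in the cKO. Its ratio stayed high in both mutants (log2 1.45, 1.18 to 1.72, and 1.53, 1.02 to 2.06), and no difference from control was called (adjusted p = 0.233 and 0.628). The slow light chain *Myl6b* had 47.0 against 24.5 CPM in the KO and 47.5 against 25 CPM in the cKO, against 74.9 and 25.9 CPM in control 1 and 93.7 and 38.0 CPM in control 2. The slow calcium pump *Atp2a2* had 968 and 582 CPM in control 1, 955 and 622 CPM in control 2, 1417 and 991 CPM in the KO and 661 and 549 CPM in the cKO, and its ratio was called below control in the cKO (difference -0.58, adjusted p = 0.00276) and missed the threshold in the KO (-0.30, adjusted p = 0.0966). *Atp2a2* was thus most abundant in the KO, in slow-rich and fast-rich spots alike. The slow myosin binding protein *Mybpc1*, the calcium store protein *Casq2* and the pump regulator *Sln* showed no preference in the controls (log2 ratios from -0.025 to 0.024) and were lower in the slow-rich spots of the mutants, with -0.69, -0.52 and -0.55 in the KO and -0.37, -0.34 and -0.44 in the cKO. These were -0.076, -0.062 and 0.023 and -0.12, -0.16 and -0.15 with the adjusted score, and no call was left for them. In all, 7 of 12 slow program genes were called below control in the KO and 10 in the cKO (9 and 10 at an unadjusted p under 0.05), none above, and 0 and 5 with the adjusted score (*Tnnc1*, *Tnni1*, *Tnnt1*, *Ankrd2* and *Myoz2* in the cKO). With the score as counted 5.73% and 4.18% of all genes tested were below control. The median difference of the slow program was -0.64 and -0.63, against -0.71 and -0.41 for the 9 genes that chose muscle spots.

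Genes of early myofibril assembly and of the response to load had lower median ratios in the mutants than in the controls. In each control 2 of 7 genes were past 1.5-fold on the slow side and all 7 had a log2 ratio above 0 (medians 0.49 and 0.43). Of the genes with enough UMIs, none of 6 in the KO (1 above 0, median -0.14) and none of 7 in the cKO (3 above 0, median -0.028) was past 1.5-fold. After adjustment of the score 1 of 6 in the KO and none in the cKO was past it, and the medians were 0.12 and 0.14, against 0.51 and 0.49 in the controls. *Csrp3*, a Z-disc protein that senses stretch, had 1609.6 and 823 CPM in control 1, 1470.2 and 872 CPM in control 2, 83.7 and 73.1 CPM in the KO and 1387 and 1229.8 CPM in the cKO. Slow-rich spots exceeded fast-rich spots in the controls, and the log2 ratio was 0.19 (95% counting interval -0.03 to 0.42) in the KO and 0.17 (95% counting interval 0.14 to 0.21) in the cKO, within the TMM shift. *Csrp3* with the adjusted score had 94.6 and 61.1 CPM in the KO (log2 0.63), past 1.5-fold, and a log2 ratio of 0.24 in the cKO. *Csrp3* was scarce in the KO and near control levels in the cKO. *Ankrd2*, a stretch-responsive ankyrin repeat protein, had 143 and 60.1 CPM in control 1, 186 and 87.4 CPM in control 2, 1.37 and 1.48 CPM in the KO and 61.9 and 55.5 CPM in the cKO. Its level was about equal in slow-rich and fast-rich spots of the cKO and at the limit of detection in the KO, with 6 UMIs in either group. *Nrap*, a scaffold of early myofibrils, had 653 and 448 CPM in control 1, 647 and 471 CPM in control 2, 147 and 210.3 CPM in the KO and 739 and 815 CPM in the cKO, with a log2 ratio of -0.52 (95% counting interval -0.67 to -0.37) in the KO and -0.14 (95% counting interval -0.18 to -0.099) in the cKO. *Fhl1*, a LIM protein of the sarcomere, had 2116 and 1511 CPM in control 1, 2194 and 1632 CPM in control 2, 279 and 291 CPM in the KO and 555 and 566 CPM in the cKO, and so stood about equal between the groups of either mutant.

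All of these differences from control were tested. *Csrp3* was called at -0.81 (SE 0.17, adjusted p = 0.00221) in the KO and -0.86 (0.11, 3e-05) in the cKO, *Nrap* at -1.16 (0.12, 1.4e-06) and -0.81 (0.097, 1.8e-05) and *Fhl1* at -0.66 (0.12, 0.00055) and -0.66 (0.10, 0.00042). The actin crosslinker *Flnc* (-0.71 and -0.61) and *Xirp1* (-0.94 and -0.61) were called too, so that 5 of 7 genes tested were below control in each mutant and none above. Among all genes tested 5.73% in the KO and 4.18% in the cKO were below control. *Ankrd2* was called in the cKO (-1.18, SE 0.12, adjusted p = 3.7e-06) and not in the KO (adjusted p = 0.362), and the Z-disc protein *Myoz2* of the slow program in both (-0.62, adjusted p = 0.00029, and -0.89, 3.8e-06). With the adjusted score *Csrp3*, *Nrap*, *Ankrd2* and *Myoz2* were still called in the cKO (adjusted p = 0.00612, 0.00443, 0.00052 and 0.00348), and no load gene was called in the KO, where *Nrap* had an adjusted p of 0.0504. None of the 7 genes was called between KO and cKO (1 at an unadjusted p under 0.05, 0 by DESeq2), where the difference was 0.05 ± 0.18 (SE) for *Csrp3* and -0.35 ± 0.13 for *Nrap*.

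Fast program genes other than the score genes lay on the fast side, in the KO by more before than after the score was adjusted. Of 15 genes 11 were past 1.5-fold in the fast-rich spots of the KO and 1 in the slow-rich spots (median log2 -0.73), and none was in the cKO (median -0.48), where each control had 1 on either side (medians -0.19 and -0.23). In interior spots 5 were past 1.5-fold on the fast side of the KO (median -0.44). After adjustment it was 1 (median -0.15), against controls of -0.14 and -0.16, and the cKO had a median of -0.20 with none on the fast side. *Pvalb*, the fast calcium buffer parvalbumin, had 126 and 258 CPM in control 1, 341 and 635 CPM in control 2, 171 and 546 CPM in the KO and 785 and 1109 CPM in the cKO. It was higher on the fast side in all sections, with log2 ratios of -1.67 (95% counting interval -1.79 to -1.55) in the KO and -0.50 (95% counting interval -0.54 to -0.46) in the cKO, and the cKO held the most of it. The fast troponin I *Tnni2* had 2102 and 2549.7 CPM in control 1, 2386 and 2827 CPM in control 2, 509 and 1328 CPM in the KO and 799 and 1165 CPM in the cKO. Its fast side was steeper in the KO (-1.38) than in the cKO (-0.54), at a lower level than in the controls in both. The fast calcium pump *Atp2a1* had 4282 against 8074 CPM in the KO and 6074 against 8799 CPM in the cKO (log2 -0.91 and -0.53), the Z-disc protein *Myoz1* 1046 against 2322 CPM in the KO and 1715 against 2517 CPM in the cKO (-1.15 and -0.55) and the fast troponin C *Tnnc2* 8337 against 13814 CPM in the KO and 13859 against 17988 CPM in the cKO (-0.73 and -0.38). Fast myosins did not move as 1 group. *Myh1* (type IIx) had 1266 and 1118 CPM in control 1, 1803 and 1848 CPM in control 2, 1789 and 2321 CPM in the KO and 700.1 and 1038 CPM in the cKO, whereas *Myh2* (type IIa) stood on the slow side in all sections, at 46.0 and 24.2 CPM in control 1, 78.3 and 33.2 CPM in control 2, 71.9 and 31.9 CPM in the KO and 12.4 and 8.80 CPM in the cKO.

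In the test 12 of 15 fast program genes were called below control in the KO and none above, and 8 below and 1 above (*Mybph*, a myosin binding protein, difference 0.42, adjusted p = 0.0215) in the cKO. Below control were 5.73% and 4.18% of all genes tested. The median difference of the fast program was -0.72 in the KO and -0.45 in the cKO, near that of the 9 genes that chose muscle spots (-0.71 and -0.41). *Tnni2* was called at -1.27 (SE 0.13, adjusted p = 7.8e-07) in the KO and -0.45 (0.12, 0.0301) in the cKO. *Pvalb* was called at -0.85 (SE 0.11, adjusted p = 2.2e-05) in the KO and missed the threshold in the cKO, where it lay on the other side (0.29, 0.094, 0.0707). *Pvalb*, *Tnni2* and *Myoz3* also differed between KO and cKO, at -1.15 (adjusted p = 1.3e-05), -0.81 (0.00381) and -0.87 (0.0256), and were 3 of 15 called. No fast program gene was called below control with the adjusted score. *Mybph* was called above control in both mutants (0.60 and 0.57, adjusted p = 0.0173 and 0.00833) and *Pvalb* in the cKO (0.66, 0.00122), and *Pvalb* stayed different between the mutants (-0.68, 0.0351). *Pvalb* with the adjusted score thus separated slow-rich from fast-rich spots less in the cKO than in the controls or the KO. Its log2 ratios were then -0.16 in the cKO, -0.86 in the KO, and -0.96 and -0.78 in the controls.

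Developmental myosins lay on opposite sides. Embryonic *Myh3* had 5993 and 3306 CPM in control 1, 4933 and 2945 CPM in control 2, 1829 and 1461 CPM in the KO and 5721 and 3721 CPM in the cKO, higher in slow-rich spots of every section, and its ratio was below control in the KO (difference -0.62, adjusted p = 0.00609) and not called in the cKO (-0.35, 0.182). Perinatal *Myh8*, the most abundant of these genes, had 30999 and 37626 CPM in control 1, 30105 and 36566 CPM in control 2, 15835 and 27112 CPM in the KO and 26829 and 35972 CPM in the cKO, on the fast side throughout, and was called below control in the KO (-0.64, 0.0203). *Myl4* and *Tnnt2*, light chain and troponin T of fetal muscle, had 1354 against 1259 CPM in the KO and 3807 against 3448 CPM in the cKO, and 1577 against 1447 CPM in the KO and 1342 against 984 CPM in the cKO, and were not past 1.5-fold. In interior spots *Myh3* was still called in the KO (adjusted p = 0.0182), and with the adjusted score neither myosin was (0.85 and 0.988).

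Of the transcription factors of fiber type, *Maf* stood apart. *Maf*, a large MAF factor also known from macrophages and connective tissue, had 75.7 and 89.0 CPM in control 1, 111 and 118 CPM in control 2, 414 and 157 CPM in the KO and 140.5 and 154 CPM in the cKO. It was higher in the slow-rich spots of the KO alone (log2 1.40, 95% counting interval 1.27 to 1.53), and was called above control in the KO (1.42, SE 0.16, adjusted p = 2.6e-06) and above the cKO (1.55, 0.18, 2.8e-05). In interior spots both calls held (adjusted p = 0.00012 and 0.00058), and with the adjusted score neither did (0.0723 and 0.15). The 5 macrophage markers were on the same side in the KO (*C1qb* 131 against 57.6 CPM, *Mrc1* 135 against 70.9 CPM), and their part in the *Maf* value was not tested. *Prox1*, a factor of slow fibers, had 33.0 and 17.1 CPM in control 1, 28.5 and 27.7 CPM in control 2, 66.6 and 41.3 CPM in the KO and 32.6 and 24.7 CPM in the cKO, past 1.5-fold in the slow-rich spots of the KO, and no difference was called (adjusted p = 0.947 in the KO and 0.642 in the cKO). *Sox6*, a repressor of slow genes, had 46.6 and 44.8 CPM in control 1, 37.8 and 40.4 CPM in control 2, 27.1 and 46.0 CPM in the KO and 35.9 and 41.8 CPM in the cKO, past 1.5-fold on the fast side of the KO and called there (-0.89, adjusted p = 0.00324), though not with the adjusted score (0.612). The glycolytic fiber factor *Tbx15* had 62.7 against 85.8 CPM in the KO and 56.9 against 71.5 CPM in the cKO. Of 16 regulators tested, 1 was called above and 6 below control in the KO and 0 and 5 in the cKO, and none with the adjusted score. Among all genes tested 4.31% were above and 5.73% below in the KO, and 1.18% and 4.18% in the cKO.

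Glycolysis genes were past 1.5-fold mainly in the KO, and few oxidative genes were in either mutant. Of the glycolysis list 8 of 13 genes were past 1.5-fold on the fast side of the KO (median -0.65) and 1 of 14 in the cKO (median -0.39), against medians of -0.25 and -0.25 in the controls. *Gpd1*, which links glycolysis to lipid synthesis, had 49.7 against 114 CPM in the KO and 92.7 against 149 CPM in the cKO, the glycogen phosphorylase *Pygm* 1183 against 2270.3 CPM in the KO and 1555 against 2216 CPM in the cKO and *Aldoa* 2417 against 4205 CPM in the KO and 3478 against 4853 CPM in the cKO. Of the oxidative phosphorylation list 3 of 20 genes were past 1.5-fold on the fast side of the KO (median -0.41) and 1 of 21 in the cKO (median -0.34, *Cox7a1*, 312 against 511 CPM), against -0.085 and -0.098 in the controls. All genes of both lists with enough UMIs had a log2 ratio below 0 in both mutants, in the same spots in which the 9 genes of muscle selection were lower. No gene of either list was past 1.5-fold with the adjusted score, and the medians were -0.15 and -0.11 for glycolysis and -0.024 and -0.13 for oxidative phosphorylation in the KO and cKO. The oxygen store *Mb* was on the slow side of the controls (93.1 against 51.1 and 169.9 against 112 CPM) and the KO (211 against 169 CPM) and about equal in the cKO (56.6 against 61.0 CPM), where it was called below control also with the adjusted score (-0.84, adjusted p = 0.00255). Below control were 9 of 15 glycolysis, 17 of 21 oxidative phosphorylation and 8 of 14 fatty acid and oxygen genes in the KO, and 2, 16 and 8 in the cKO, with none above. These counts were 0, 0 and 0 in the KO and 0, 0 and 1 in the cKO with the adjusted score. With the score as counted 5.73% and 4.18% of all genes tested were below control, and 9 and 2 of the 9 genes of muscle selection.

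Of 10 genes of the channel complex and its partners, 2 were past 1.5-fold in the KO, on the fast side, and none in the cKO (medians -0.46 and -0.16, and 0.030 and -0.026 with the adjusted score, where none was). *Cacna1s*, which encodes CaV1.1, had 58.8 and 63.8 CPM in control 1, 60.8 and 67.1 CPM in control 2, 32.4 and 28.2 CPM in the KO and 57.5 and 64.1 CPM in the cKO. Its transcript was lower in the KO than in the other 3 sections and was within 1.5-fold between slow-rich and fast-rich spots in each. Where the probes lie relative to the mutation is not given in the sources used here, so the level is no check of the genotype. *Srl*, a calcium store protein, had 101 against 174 CPM in the KO and 114 against 122 CPM in the cKO, and the channel subunit *Cacnb1* 105 against 161 CPM in the KO and 159 against 177 CPM in the cKO, the members past 1.5-fold in the KO. Below control were 9 of 10 in the KO and 7 in the cKO, none with the adjusted score. The 9 genes that chose muscle spots had 9 and 2 below control, and all genes tested had 5.73% and 4.18%. *Ctnnb1*, which encodes β-catenin, had 76.3 and 70.3 CPM in control 1, 68.3 and 69.2 CPM in control 2, 79.2 and 71.7 CPM in the KO and 86.6 and 69.2 CPM in the cKO, with no call, and spots also hold cells in which it was not deleted. The feedback inhibitor *Nkd1* of the Wnt pathway had 17.4 and 18.4 CPM in control 1, 28.4 and 25.8 CPM in control 2, 136 and 58.8 CPM in the KO and 36.8 and 23.4 CPM in the cKO, on the slow side of both mutants (log2 1.21 and 0.65) and called above control in the KO (1.03, adjusted p = 0.00014). Its log2 ratio with the adjusted score was 0.29 in the KO, with no call (adjusted p = 0.431), and turned to -0.099 in the cKO. It was the 1 call among 11 Wnt and β-catenin genes in the 3 comparisons (2, 1 and 1 at an unadjusted p under 0.05, 0 by DESeq2). *Axin2*, a target of β-catenin named after its values were seen, had 70.5 and 58.3 CPM in control 1, 84.9 and 77.5 CPM in control 2, 131 and 111 CPM in the KO and 24.7 and 16.6 CPM in the cKO and so was lowest in both groups of the cKO.

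Genes of the fiber's middle, where the nerve ends, were within 1.5-fold in both mutants, and *Uchl1* of the list for fiber ends turned side in the KO. Of the neuromuscular junction list, 4 of 11 genes with enough UMIs had a log2 ratio above 0 in the KO and 10 of 12 in the cKO (medians -0.032 and 0.18), against 13 of 13 in control 1 (1 past 1.5-fold, median 0.42) and 11 of 13 in control 2 (none, median 0.21). Among all genes, 5171 of 7236 had a log2 ratio above 0 in the KO (median 0.18) and 7381 of 9414 in the cKO (median 0.20). In the test 2 of 14, the acetylcholine receptor subunit *Chrnd* and *Ufsp1*, were called below control in the KO (-0.82 and -0.53, adjusted p = 0.00187 and 0.0303) and none in the cKO (7 and 5 at an unadjusted p under 0.05). In the KO 0 were called below control with the adjusted score, 1 in interior spots and 0 by DESeq2. Among all genes tested 5.73% were below control in the KO with the score as counted. The medians with the adjusted score were 0.19 in the KO and 0.087 in the cKO, against 0.38 and 0.22 in the controls. *Chrnd* had 86.9 and 59.2 CPM in control 1, 78.0 and 57.9 CPM in control 2, 191 and 217 CPM in the KO and 109 and 93.4 CPM in the cKO. At the myotendinous junction *Col22a1*, a collagen of the muscle end, had 83.6 and 22.1 CPM in control 1, 93.7 and 38.5 CPM in control 2, 41.5 and 17.1 CPM in the KO and 152 and 31.3 CPM in the cKO. It was higher in slow-rich spots of every section, and the ratio of the cKO was called above control with the adjusted score (1.19, adjusted p = 0.013) and not without it (0.53, 0.222). *Uchl1*, a ubiquitin hydrolase best known from nerve, had 77.4 and 31.6 CPM in control 1, 95.9 and 50.7 CPM in control 2, 24.9 and 35.1 CPM in the KO and 158 and 65.8 CPM in the cKO. It was on the slow side of the controls and the cKO and on the fast side of the KO, and was called in the KO against control (-1.74, SE 0.29, adjusted p = 0.00028) and against the cKO (-1.73, 0.30, 0.00254). Both calls held with the adjusted score (0.0127 and 0.0124), and in interior spots the first did (0.0171) and the second did not (0.107).

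Among myogenic genes *Mstn*, the growth inhibitor myostatin, had 30.1 against 112 CPM in the KO and 82.5 against 122 CPM in the cKO and *Myf6* 218 against 368 CPM in the KO and 203 against 280.2 CPM in the cKO, both past 1.5-fold on the fast side of the KO, while *Myog* had 549.7 against 486 CPM in the KO and 491 against 375 CPM in the cKO. Below control were 3 of 7 in the KO and 2 in the cKO, against 5.73% and 4.18% of all genes tested. With the adjusted score these counts were 0 and 0, in interior spots 2 and 2, and by DESeq2 3 and 0. Cell cycle genes had log2 ratios above 0 in both mutants (9 of 9 in the KO and 11 of 11 in the cKO, medians 0.39 and 0.43) as in the controls (10 of 11 and 10 of 10, medians 0.19 and 0.20). Of all genes 5171 of 7236 in the KO and 7381 of 9414 in the cKO lay above 0 (medians 0.18 and 0.20). *Birc5* was past 1.5-fold at 43.8 against 28.4 CPM in the KO and 37.2 against 24.6 CPM in the cKO. None of 11 was called by edgeR in any of the 3 comparisons (1 in each at an unadjusted p under 0.05, 0 by DESeq2), and with the adjusted score the medians were 0.054 and 0.23.

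The 8 genes with the largest ratios were other genes in the KO than in the cKO. In the KO these were *Lrrn4* (299 against 14.1 CPM, log2 4.41, 95% counting interval 4.02 to 4.82), *Tmem108* (98.3 against 9.39 CPM), the keratins *Krt19* (63.4 against 6.18 CPM) and *Krt7* (279 against 35.3 CPM), *Lratd1* (78.0 against 11.6 CPM), *Gpm6a* (87.1 against 13.6 CPM), *Ltbp2* (232 against 37.1 CPM) and *Slpi* (78.2 against 14.3 CPM). Keratins, *Lrrn4* and the mesothelium markers *Msln* (80.8 against 17.3 CPM) and *Wt1* (70.7 against 18.3 CPM) are known from the sheet of mesothelial cells that covers the diaphragm. In the cKO they were the cartilage collagen *Col2a1* (62.9 against 3.77 CPM), the tendon genes *Tnmd* (167 against 21.9 CPM, log2 2.93, 95% counting interval 2.75 to 3.11) and *Fmod* (151 against 22.8 CPM), *Col22a1*, *C1qtnf3* (211 against 72 CPM), *Abi3bp* (73.0 against 25.1 CPM), *Col11a1* (137 against 53.8 CPM) and *Htra1* (63.3 against 25.2 CPM). Between the mutants *Krt19* (3.0, adjusted p = 0.00024) and *Lrrn4* (2.99, 0.00262) were called higher on the slow side of the KO and *Tnmd* (-2.26, 0.00037) and *Col2a1* (-6.56, 0.0144) on that of the cKO. *Col2a1* had under 200 UMIs over both groups of the KO. *Krt19* and *Tnmd* were not called between the mutants with the adjusted score (0.0918 and 0.642), whereas *Tnmd* stayed above control in the cKO (0.95, 0.0244).

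Of the fibroblast list 3 of 6 genes were past 1.5-fold on the slow side of the KO and 4 of 6 in the cKO (*Col1a1*, 9692 against 4656 CPM in the KO and 8931 against 4256 CPM in the cKO), of the tendon list 3 of 5 and 5 of 6, of the mesothelium list 3 of 3 and 2 of 3 and of the macrophage list 5 of 5 and none of 5. In the controls these were none of 6 in both for fibroblast, 3 of 6 in both for tendon, none of 2 and 3 of 4 for mesothelium and none of 5 in both for macrophage, so that the tendon share of the KO and the mesothelium share of the cKO were near a control's. Called above control were 3 of 6 fibroblast, 2 of 6 tendon, 3 of 5 mesothelium and 4 of 5 macrophage genes tested in the KO, and 2, 4, 0 and 1 in the cKO. Among all genes tested 4.31% in the KO and 1.18% in the cKO were above control. The tendon factor *Scx* was called below control in the KO (-1.04, adjusted p = 0.00035, and not with the adjusted score, 0.67), so that the tendon list had a median difference of -0.015 there. With the adjusted score *Tnmd* in the cKO was the 1 call left among them. Liver genes were called below control in the KO (4 of 6, *Alb* at -1.61, adjusted p = 4.2e-07), and these calls rested on control 1. *Alb* had 328 and 105 CPM in control 1, 0 and 0.0692 CPM in control 2, 375 and 328 CPM in the KO and 5.83 and 1.33 CPM in the cKO, and without control 1 its difference was 2.65 with no call.

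On the fast side the 8 leading genes of the KO were the water channel *Aqp4* of fast fibers (9.81 against 51.4 CPM, log2 -2.39, 95% counting interval -2.90 to -1.91), *Mstn*, *Pvalb*, *Tnni2*, *Tpbgl* (30.8 against 73.6 CPM), *Gpd1*, *Tmem52* (34.4 against 77.6 CPM) and *Myoz1*. Those of the cKO were *Psca* (37.3 against 74.6 CPM), *Stac2* (44.8 against 76.8 CPM), the chloride channel protein *Clic5* (40.6 against 68.2 CPM), *Plcd4* (36.3 against 60.8 CPM), *Tmem52* (51.3 against 85.5 CPM), the muscle elongation factor *Eef1a2* (176 against 292 CPM), the acetylcholine receptor subunit *Chrna9* (72.2 against 119 CPM) and *Cox7a1*. *Tmem52* was the gene in both lists of 8. *Psca*, a small surface protein, had 0.153 and 0 CPM in control 1, 0.0620 and 0 CPM in control 2 and no UMI in either group of the KO.

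Some differences held in all 3 readings, with the score as counted, with the adjusted score and in interior spots. They were 12 genes for the KO against control, 40 for the cKO against control and 4 between the mutants, and the genes named here were chosen after their values were seen. In the cKO they included the slow program and load genes *Tnnc1*, *Tnni1*, *Tnnt1*, *Csrp3*, *Nrap*, *Ankrd2* and *Myoz2* given above. The small heat shock proteins *Hspb1*, *Hspb6* and *Hspb7* of muscle differed from control by -0.47, -0.58 and -0.62 with the adjusted score (adjusted p = 0.033, 0.0029 and 0.0035), and the thin filament nucleator *Lmod2* by -0.60 (0.011). The lowest adjusted p was that of *Gsto1*, a glutathione transferase, with 69.7 and 39.5 CPM in control 1, 82.4 and 45.0 CPM in control 2, 88.1 and 54.4 CPM in the KO and 101 and 119 CPM in the cKO. It was on the slow side of the controls and the KO and on the fast side of the cKO, at -1.25 (SE 0.11, adjusted p = 2.3e-07) against control and 0.96 (0.00131) for KO against cKO, and at -1.60 (2.4e-08) and 1.23 (0.00196) with the adjusted score. In interior spots the second was not called (adjusted p = 0.277). The phosphatase *Dupd1* followed it, with 61.3 and 38.7 CPM in control 1, 69.5 and 48.6 CPM in control 2, 41.3 and 21.0 CPM in the KO and 69.6 and 89.9 CPM in the cKO and a difference from control in the cKO of -1.13 (adjusted p = 3e-06). In the KO, with the adjusted score, the growth factor *Gdf10* (0.92, 0.013), *Ccdc80* (0.54, 0.02) and *F13a1* (0.96, 0.012) were above control. *Uchl1*, *Npr3* (-1.74, 0.0095) and the muscle carbonic anhydrase *Car3* (-0.71, 0.017) were below it. The part of connective tissue and macrophages in the genes above control was not tested. *Npr3* was below control in all 3 readings in the cKO too (-1.60, 0.0012 with the adjusted score). The same held for *Ppp1r1a* in the KO (-0.98, 0.044) and the cKO (-0.85, 0.0011).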

How the data were processed

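Diaphragms were fixed, embedded in paraffin and cut en face, and the authors ran probe-based Visium and Space Ranger against mm10. They deposited, per section, raw UMI counts for 19465 genes and the spot positions. The counts were used as deposited. Spots with under 1000 UMIs were dropped, and groups came from the labels.

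UMIs of the slow-rich and of the fast-rich spots were summed per section. Within a section, CPM ratios were given with exact 95% counting intervals, which cover counting error only. Differences between sections were tested with edgeR 4.0.16 (R 4.3.3; filterByExpr, TMM, quasi-likelihood test, Benjamini-Hochberg, adjusted p under 0.05 called) on 16 sums with the section as a block, over all 8 sections in 5 groups. The 9 selection genes and 6 score genes were left out of counts over all genes. DESeq2 1.42.0 was an alternative. In simulated data for the KO against control (13777 genes), 84 of 100 genes changed by 1 on the log2 scale and 31 of 100 changed by 0.5 were recovered, with 5 false calls. These data were drawn from the fitted model, with the same spread in mutants and controls and no mutant shift in muscle content. The 5 false calls therefore give no error rate for the measured sections. The labels do not say that sections came from separate litters, so p-values measure the spread between these sections.

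Named genes were, per mutant, the 8 with the largest and the 8 with the smallest ratio (at least 200 UMIs over both groups and 50 CPM in the higher), per test the 5 furthest called genes each way (mean log2 CPM of at least 4), list members past 1.5-fold or called, and *Cacna1s* and *Ctnnb1*. *Axin2*, *Myog*, *Myl4*, *Tnnt2* and genes named for holding in all readings were chosen after their values were seen. The spots, lists and tests were chosen with earlier results of these data known. Of the listed genes, *Tpm3*, *Actc1*, *Xirp2*, *Vgll2*, *Tpi1*, *Ldha*, *Ldhb*, *Ndufa4*, *Cox4i1*, *Cox5a*, *Myod1*, *Ccnb1* and *Hba-a1* were not analysed here. Some genes, and 1 alternative that needs one of them, are not reported here.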

Additional observations from a re-analysis of the deposited data

Results flagged for a closer look

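The number of genes whose slow-minus-fast ratio differed between groups by edgeR was 1382 for the KO against control, 737 for the cKO against control and 141 for the KO against the cKO. The genes furthest from 0 among the calls follow, as log2 differences.

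For the KO against control these were *Lrrn4* (3.97), *Krt19* (3.02), *Tmem108* (2.69), *Gpm6a* (2.57) and *Krt7* (2.56) above, and *Col9a1* (-3.85), *Plin4* (-2.19), *Has2* (-2.19), *Atp2b3* (-1.98) and *Ttr* (-1.86) below. *Ttr* is a liver gene, and without control 1 at E18.5 its difference was 3.42. *Col9a1*, like all genes of the cartilage list, had under 200 UMIs over both groups of the KO.

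For the cKO against control these were *Col2a1* (3.96), *Col9a1* (2.36), *Fmod* (1.51), *Tnmd* (1.42) and *Gja5* (1.34) above, and *Gsto1* (-1.25), *Ankrd2* (-1.18), *Plin4* (-1.17), *Dupd1* (-1.13) and *Ppp1r1a* (-1.10) below. *Col2a1* and *Col9a1* are cartilage collagens, and *Fmod* and *Tnmd* are tendon genes.

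Between the mutants *Krt19* (3.0), *Lrrn4* (2.99), *Krt7* (2.57), *Spint2* (1.99) and *Osr1* (1.81) were higher on the slow side of the KO, and *Col2a1* (-6.56), *Col9a1* (-6.22), *Ahsg* (-2.94), *Tnmd* (-2.26) and *Cpm* (-2.16) on that of the cKO. Both arms of this comparison are single sections. No gene of the cartilage list reached 200 UMIs over both groups in the KO, and no gene of the liver list (*Ahsg*) did in the cKO. These differences thus rest on few UMIs in 1 arm.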

How the results depend on the processing

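No paired analysis was possible between mutant and control sections because they share fewer than 2 replicate numbers, whereas slow-rich and fast-rich spots of a section were paired by the section block. Of 223 called differences of named genes, 25 were still called with the adjusted score, 121 in interior spots, 88 by DESeq2 and 0 in a fit that left out the section block. Past 1.5-fold on the slow and fast side, among genes with at least 200 UMIs under the setting itself (in the KO 7022 with the adjusted score and 5036 in interior spots, in the cKO 9425 and 8815), the KO had 56 and 42 genes with the adjusted score, 260 and 40 in interior spots, 369 and 493 with TMM and 1640 and 357 from 50 UMIs on. The cKO had 68 on the slow side with the adjusted score, 320 and 14 in interior spots, 1295 and 127 with a pseudocount of 5, 174 and 235 with TMM, and 1124 and 102 from 50 UMIs on. The test called 26, 44 and 11 genes (KO against control, cKO against control, KO against cKO) with the adjusted score, 226, 61 and 13 by DESeq2 and 0 in each with no section block. In interior spots it called 291 for the KO against control and 23 between the mutants. For the cKO it called 1735 with spots thinned to 5000 UMIs. Between the mutants it called 43 with a pseudocount of 5, 344 thinned, 242 with the E18.5 sections alone and 292 with no filter on low counts. With 1 control left out the counts ranged from 665 to 1778, 135 to 1138 and 84 to 304. The first is 665 without E18.5 control 1. The second is 135 without it, 478 without E18.5 control 2, 241 without E14.5 control 1 and 1138 without E14.5 control 2. The third is 84 without E14.5 control 1, 304 without E14.5 control 2 and 266 without E14.5 control 3. With the adjusted score 44.1% of slow-rich and 36.8% of fast-rich spots of the KO and 22.0% and 21.0% of the cKO lay beside other tissue, and with at least 5000 UMIs a spot 26.2% of the slow-rich spots of the cKO lay beside other tissue.

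Values that changed sign with the adjusted score were, among log2 ratios, *Cacnb1* (0.016), *Prss23* (-0.0012) and *Col3a1* (-0.038) in the KO and *Nkd1* (-0.099), *Sulf1* (-0.095), *Dcn* (-0.026) and *Wt1* (-0.11) in the cKO. Among differences of the KO from control they were *Fmod* (-0.029), *Cox7a1* (0.080), *Ryr1* (0.078), *Casq1* (0.030), *Myoz3* (0.044), *Mef2c* (0.0092), *Mafa* (0.19), *Pfkm* (0.067), *Pgam2* (0.011), *Gys1* (0.060), *Ndufv1* (0.027), *Sdha* (0.060), *Sdhd* (0.020), *Cacna2d1* (0.025) and *Jph1* (0.040), and *Srl* (0.031) between the mutants. *Hbb-bt* turned in interior spots (0.55), and 3 differences of the KO from control in the fits that left out 1 control, *Ttr* (from -1.88 to 3.42), *Ahsg* (-1.15 to 0.51) and *Alb* (-1.62 to 2.65), each highest without E18.5 control 1. The causes were not tested. The scores of the cKO rest on a median of 4 slow UMIs per muscle spot, which limits their precision.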
